A study of Homo sapiens with 6 samples.

Results

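The 9 genes described here encode FOXM1, the MYB proteins B-MYB (MYBL2) and A-MYB (MYBL1), the MuvB core subunits LIN9, LIN37, LIN52, LIN54 and RBBP4, and the pocket protein p130 (RBL2). They were chosen by name, as known members of these complexes, with earlier results of these data known. Matched to their Ensembl identifiers, they are 9 of 63677 genes in the count table. All 9 had more than 10 counts in total and were among the 21729 genes tested. RNA was sequenced from UWB1.289 cells, an established BRCA1-deficient human ovarian cancer cell line, after 24 h with Olaparib (3 samples) or with its solvent DMSO (3 samples). Olaparib inhibits the DNA repair enzyme PARP1. The genotype label is WT in all 6 samples, and the medium and time were the same in both groups. Olaparib was given at 4 µM by the sample labels and at 10 µM by the design text of the series. The samples are described as independent replicates grown in separate dishes, all of 1 line, so no other genetic background was measured.

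MuvB is a small protein core that is handed from one partner to another as a cell moves through its cycle. In resting and G1 cells it joins p130 or p107, E2F4 or E2F5 and DP proteins to form DREAM, which keeps cell cycle genes off. Later the same core binds B-MYB and then recruits FOXM1, and these complexes switch on the genes of G2 and mitosis. LIN54 touches DNA at an element known as the CHR, LIN52 bridges the core to p130 or to B-MYB, and E2F proteins read a separate GC-rich element. In dividing tumour cells such as this line, the activator forms are the ones usually described.

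The promoters were searched for the letters of these elements. RefSeq promoter entries (assembly GRCh38.p14, 250 bases before to 50 after each annotated start) were matched for 7 of the 9 genes. These RefSeq starts can differ from the ends of the gene coordinates given below. Bases before such a start can then lie inside those coordinates, as in MYBL2. MYBL2 and LIN52 are printed first because, of the 9, only in these were the 3 Olaparib samples all on one side of the 3 DMSO samples. Each sequence holds the 250 bases before the start, 5′ to 3′ on the strand of the gene, with E2F-type matches on either strand in capitals. The letters searched were TTCCCGC first, then TCCCGCC (which overlaps the former by 6 letters), and lastly TTGGCGC.
MYBL2 (chr20:43666864-43667113, plus strand): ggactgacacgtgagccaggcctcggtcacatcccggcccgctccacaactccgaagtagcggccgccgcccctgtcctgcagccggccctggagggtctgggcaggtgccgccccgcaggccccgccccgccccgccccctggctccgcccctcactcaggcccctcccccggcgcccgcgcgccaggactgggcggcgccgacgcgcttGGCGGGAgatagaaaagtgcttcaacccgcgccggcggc
LIN52 (chr14:74084706-74084955, plus strand): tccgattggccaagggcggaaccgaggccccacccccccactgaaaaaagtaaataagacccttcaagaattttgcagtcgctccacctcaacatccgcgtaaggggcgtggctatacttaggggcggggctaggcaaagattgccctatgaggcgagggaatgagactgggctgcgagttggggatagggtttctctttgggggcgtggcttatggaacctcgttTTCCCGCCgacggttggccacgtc
The MYBL2 stretch was 76.8% G and C and held its match on the opposite strand, with its first base 39 bases before the start. In LIN52 the share of G and C was 57.6% and the match began 24 bases before the start. At least 1 of these 3 E2F-type motifs lay in the promoters of 6 of the 7 genes (all but RBL2), against 6350 of 27305 genes with a promoter entry (23.3%). The 7 genes had 1.86 promoter entries each, more than genes in general, so more bases were searched for each. A match describes the letters only and shows no binding.

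The CHR was searched as TTTGAA or TTCGAA on both strands. It was found in 4 of the 7 genes, LIN9, LIN37, LIN54 and RBL2, against 5336 of 27305 genes (19.5%). As above, the genes searched had more promoter entries each than genes in general, and a match shows letters only, not binding. The windows below show 1 match from each of these 4 genes, in capitals with 12 bases on either side. Positions are those of the first capital, counted from the annotated start.
LIN9, position -60 (chr1:226309207-226309236, minus strand): gcgagctccgcaTTCGAAcctccctcgcaa
LIN37, position -182 (chr19:35748620-35748649, plus strand): acgaagctcatcTTTGAActgtccccgcct
LIN54, position -100 (chr4:83010906-83010935, minus strand): ggcccttgtgcgTTTGAAggttggcggggc
RBL2, position 25 (chr16:53434483-53434512, plus strand): ggcgcttcgccgTTTGAAtggctgcgggcc
The matches in LIN54 and RBL2 lie on either side of the start, and a second LIN54 entry places the same window at position -89. LIN9 also held TTTGAA at position -3 of the same entry.

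Total counts per sample lay between 35360458 and 39640775, and the 9 genes together took 0.0674% to 0.0712% of them. Values below are normalised read counts, that is, counts scaled by edgeR's TMM method to a common library size, with the SD over 3 samples. The test of Olaparib against DMSO was the quasi-likelihood test of edgeR, adjusted by Benjamini-Hochberg over the 21729 genes, and a gene was called at an adjusted p under 0.05. Of 9 epithelial marker genes 8 were tested, for example EPCAM, KRT8 and PAX8, while the ninth, WT1, had at most 2 counts in a sample. The 9 summed to 480410 to 503501 counts in the Olaparib samples and to 458550 to 523204 in the DMSO samples. PAX8 was itself called higher after Olaparib (log2 fold change 0.10, adjusted p = 0.0399 by edgeR's quasi-likelihood test), and 5 of the 8 were higher at an unadjusted p under 0.05. The 9 markers of leukocytes, endothelium, fibroblasts and smooth muscle summed to 450 to 537 counts in the Olaparib samples and to 468 to 485 in the DMSO samples, with PECAM1 at 0 in all 6. COL1A1 held the most of these counts, at 237 to 328 per sample. Of these 9, VWF was called (log2 fold change 0.68, adjusted p = 0.0106 by edgeR's quasi-likelihood test), at 38 to 69 counts per sample, and the part of PAX8 and VWF in the results below was not tested.

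Of the 9 genes, MYBL2 was higher after Olaparib, by 9.48%, and none of the other 8 passed the test. The fitted changes of LIN37 (12%) and LIN52 (11.2%) were larger, with wider confidence intervals. These 2 genes had 369 and 2733 counts over the 6 samples, against 61496 for MYBL2. Over all genes 730 of 21729 (3.36%) were called in either direction and 467 (2.15%) were called higher. Among genes with an average log2 CPM (count scaled to library size) above 7, 101 of 1661 (6.08%) were called higher. Of the 9 genes 2 were above this level, and 1 of these was called. The 9 fold changes had a median of 0.02 on the log2 scale, 7 above 0 and 2 below, while the median over all genes was -0.0042. None of the 9 reached a fold of 1.2 together with an adjusted p under 0.05, which 262 genes (1.21%) did.

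**Figure D1:**
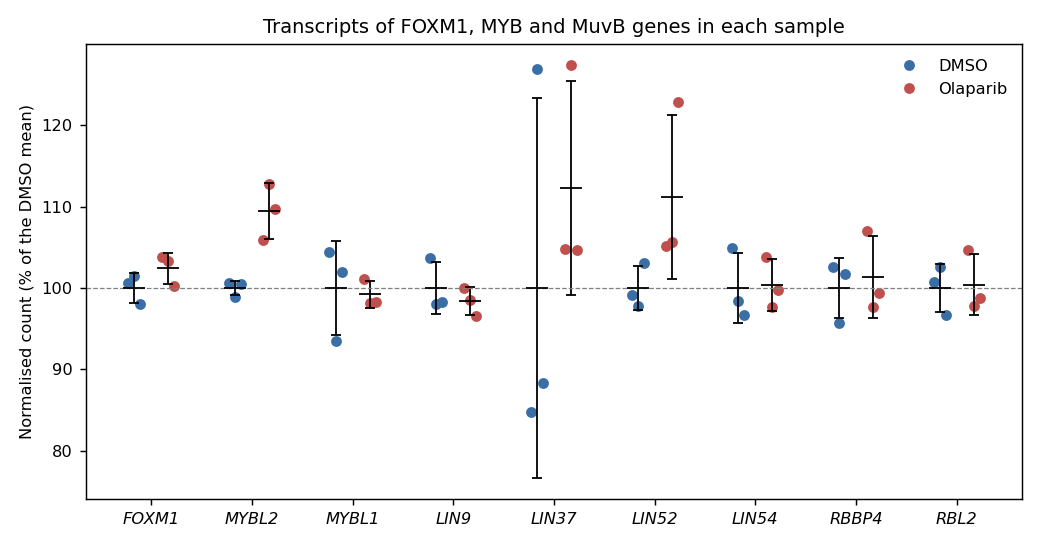
Normalised counts of the 9 genes in each of the 6 samples, as a percentage of the mean of the 3 DMSO samples (vertical axis), with the mean and SD of each group as black bars. The 3 Olaparib points (red) lie above the 3 DMSO points (blue) in MYBL2 and LIN52, and the groups overlap in the other 7 genes.

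MYBL2 (ENSG00000101057, chr20:43667019-43716495, plus strand on GRCh38) encodes B-MYB, the MYB protein of dividing cells and the partner that turns MuvB into an activator. After Olaparib its normalised counts were 10368, 11046 and 10747, and after DMSO they were 9849, 9689 and 9837. All 3 Olaparib samples were above all 3 DMSO samples, with DMSO replicate 1 and Olaparib replicate 1 closest to each other. Its mean was 10720.4 ± 339.6 (SD, n = 3) against 9792 ± 89.2 (n = 3), so the Olaparib samples were the more spread. MYBL2 rose by 0.13 on the log2 scale (95% confidence interval 0.071 to 0.19, adjusted p = 0.00681 by edgeR's quasi-likelihood test). The interval corresponds to a rise of 5.05% to 14.1%. The call was lost without DMSO replicate 2 (log2 fold change 0.12, adjusted p = 0.0684) and also when Olaparib replicate 2 was left out (0.11, adjusted p = 0.057, both by edgeR's test). Over all alternatives run, the adjusted p lay between 0.000671 and 0.0684 and the fold change was above 0 in 13 of 13.

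FOXM1 (ENSG00000111206, chr12:2857680-2877174, minus strand) encodes the forkhead activator that joins B-MYB and MuvB at late cell cycle promoters. It had 3774, 3759 and 3647 normalised counts after Olaparib and 3659, 3689 and 3564 after DMSO. The groups overlapped, since the lowest Olaparib sample lay below 2 of the DMSO samples. Its change was 2.45% (95% confidence interval -2.56% to 7.71%, adjusted p = 0.722 by edgeR's quasi-likelihood test). Part of its exonic sequence (15.9%) lies opposite exons of ITFG2, whose own log2 fold change was 0.01. Reads of the 2 genes cannot be told apart there unless strand was used in counting, which is not stated.

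MYBL1 (ENSG00000185697, chromosome 8) encodes A-MYB, best known from the testis and from germinal centre B cells. Its normalised counts were 604, 587 and 588 after Olaparib and 624, 559 and 609.6 after DMSO. The Olaparib samples lay inside the range of the DMSO samples. The change was -0.756% (95% confidence interval -7.95% to 7%, adjusted p = 0.953 by edgeR's test).

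Within each sample there were 17.2, 18.8 and 18.3 MYBL2 counts for every MYBL1 count after Olaparib, and 15.8, 17.3 and 16.1 after DMSO. This ratio does not depend on how the libraries were scaled. The groups overlapped, and the mean log2 ratio differed by 0.14, a fold of 1.10 (exact permutation test over samples, two-sided p = 0.2, where 3 against 3 cannot give less than 0.1). FOXM1 was counted 0.364, 0.34 and 0.339 times for each MYBL2 count after Olaparib and 0.371, 0.381 and 0.362 times after DMSO. Here too 1 Olaparib sample lay inside the DMSO range, and the fold was 0.936 (exact permutation test, two-sided p = 0.2).

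Among the MuvB subunits, LIN52 was the only one whose groups were apart, and it did not pass the test. LIN52 (ENSG00000205659, chr14:74084956-74201493, plus strand) encodes the subunit whose phosphorylation by DYRK1A favours binding to p130. It had 453, 455 and 529.9 normalised counts after Olaparib and 428, 422 and 445 after DMSO. Olaparib replicate 3 was far above the other two, which exceeded the highest DMSO sample by little. The change was 11.2% (95% confidence interval 1.76% to 21.5%, adjusted p = 0.214 by edgeR's quasi-likelihood test). Without Olaparib replicate 3 the log2 fold change was 0.07 in place of 0.15. Groups without overlap, in either direction, were found for 4191 of 21729 genes (19.3%), and for 2 of the 9 genes here.

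LIN9 (ENSG00000183814, chr1:226231149-226309869, minus strand) encodes a scaffold of the core that contacts B-MYB. Its normalised counts were 1259, 1241 and 1216 after Olaparib and 1306, 1235 and 1237 after DMSO. LIN54 (ENSG00000189308, chr4:82909973-83012926, minus strand), the DNA-binding subunit, had 683, 642 and 656 after Olaparib and 690.2, 647 and 636 after DMSO. In both genes DMSO replicate 1 was the highest of the 6 samples and the groups overlapped. LIN9 changed by -1.6% (95% confidence interval -7.57% to 4.75%, adjusted p = 0.873 by edgeR's test). For LIN54 the change was 0.487% (-6.49% to 7.98%, adjusted p = 0.972).

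RBBP4 (ENSG00000162521, chr1:32651142-32686211, plus strand) encodes a histone-binding protein that also serves in other chromatin complexes. It had 5964, 5439.9 and 5540.4 normalised counts after Olaparib and 5715, 5334 and 5669 after DMSO. The groups overlapped, and the change was 1.36% (95% confidence interval -3.59% to 6.58%, adjusted p = 0.867 by edgeR's test). The table also lists 6 processed pseudogenes of RBBP4, of which 5 had counts. Together these copies held 94 counts against 33651 for RBBP4 (0.279%). A further 22.8% of its exonic bases lie opposite SYNC, which had 328 counts over the 6 samples.

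LIN37 (ENSG00000267796, chr19:35748361-35754519, plus strand), a subunit known for its part in repression by DREAM, was the least counted of the 9. It had 60.7, 73.9 and 60.6 normalised counts after Olaparib and 49.1, 73.6 and 51.2 after DMSO. DMSO replicate 2 stood above 2 of the Olaparib samples, so the groups overlapped. The change was 12% with a 95% confidence interval from -11.6% to 41.8% (adjusted p = 0.725 by edgeR's test), the widest interval of the 9. On the log2 scale the change was 0.16, and it was 0.37 without DMSO replicate 2 and as low as 0.06 without Olaparib replicate 2. Of its exonic bases 54% are shared with other annotated genes, which had 0 and 3 counts in the table. For 26.7% the other gene is on the same strand, where strand cannot tell the genes apart. How reads in shared bases were counted is not stated, so reads of LIN37 may be missing from its counts.

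RBL2 (ENSG00000103479, chr16:53433977-53491648, plus strand) encodes p130, the pocket protein that bridges MuvB and E2F in DREAM. Its normalised counts were 3616, 3378 and 3410.0 after Olaparib and 3478, 3541 and 3341 after DMSO. The groups overlapped, and the change was 0.428% (95% confidence interval -4.8% to 5.94%, adjusted p = 0.963 by edgeR's test). Exons of AKTIP lie opposite 7.51% of its exonic bases.

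**Figure D2:**
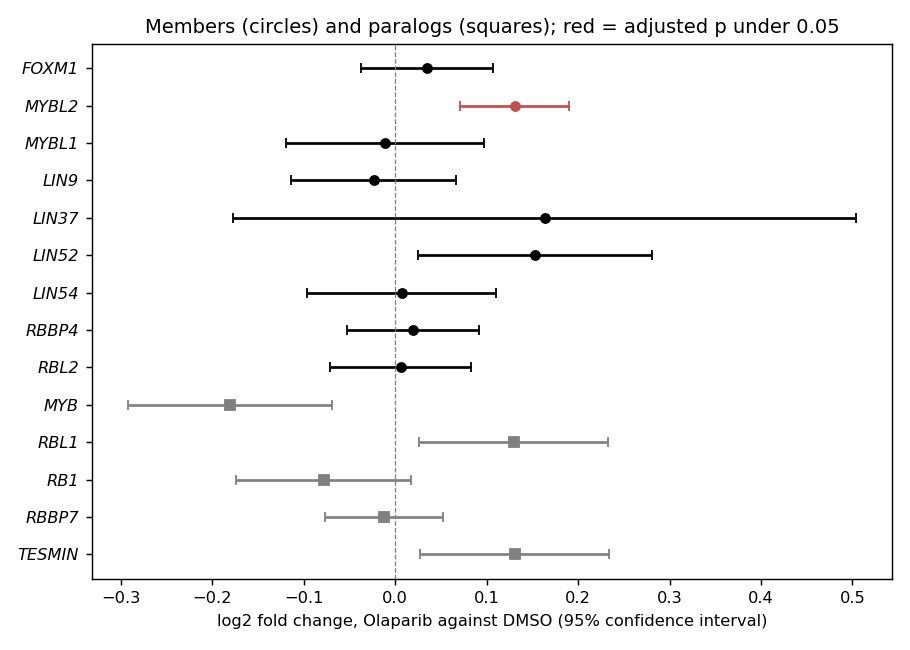
Log2 fold change of Olaparib against DMSO (horizontal axis) with its 95% confidence interval from edgeR's fit, for the 9 genes (circles) and 5 of their paralogs (squares). MYBL2, in red, has an adjusted p under 0.05, and the intervals of LIN52, MYB, RBL1 and TESMIN lie off 0 without passing the adjustment over all genes.

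The closest relatives of these proteins did not pass the test either. MYB, the founding member of the MYB family, had 506, 489 and 471 normalised counts after Olaparib and 563, 537 and 562 after DMSO. All 3 Olaparib samples were below all 3 DMSO samples, opposite to MYBL2. Its log2 fold change was -0.18 (95% confidence interval -0.29 to -0.07, adjusted p = 0.0626 by edgeR's quasi-likelihood test), and 4 of 13 alternatives gave an adjusted p under 0.05. TESMIN, a relative of LIN54 with the same kind of DNA-binding domain, had 734, 782 and 769 after Olaparib and 726, 657 and 705 after DMSO. Its groups were apart, with a log2 fold change of 0.13 (adjusted p = 0.18 by edgeR's test). For RBBP7, the near relative of RBBP4, the log2 fold change was -0.01 (adjusted p = 0.914 by edgeR's test).

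RBL1 encodes p107, which can take the place of p130 in DREAM. It had 979, 888 and 1030.0 normalised counts after Olaparib and 892, 892 and 866 after DMSO (log2 fold change 0.13, adjusted p = 0.184 by edgeR's test). Its second Olaparib sample lay within the DMSO range. RBL1 was called without that sample (0.19, adjusted p = 0.032 by edgeR's test), and without Olaparib replicate 3 its log2 fold change was 0.08. For every RBL1 count there were 3.69, 3.80 and 3.31 RBL2 counts after Olaparib and 3.90, 3.97 and 3.86 after DMSO. The ratio was lower in all 3 Olaparib samples, by a fold of 0.92 (exact permutation test over samples, two-sided p = 0.1, the smallest that 3 against 3 can give). Without Olaparib replicate 3 the log2 difference was -0.061 in place of -0.12. For RB1, which encodes the retinoblastoma protein, the log2 fold change was -0.08 (adjusted p = 0.47 by edgeR's test). It was -0.15 without Olaparib replicate 1 (adjusted p = 0.055 by the same test) and -0.01 without Olaparib replicate 2.

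**Figure D3:**
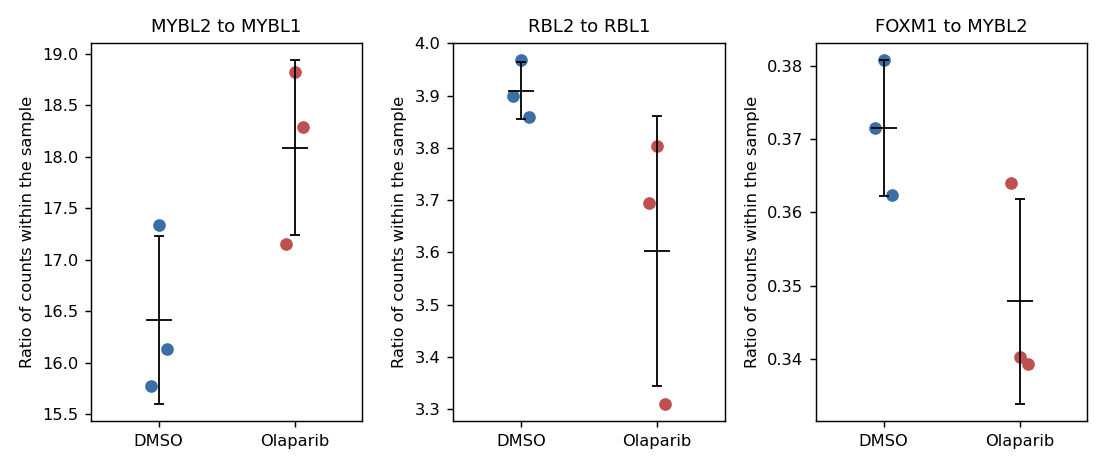
Ratio of the counts of 2 genes within the same sample (vertical axes, each with its own range that does not start at 0), for DMSO and Olaparib, with the mean and SD of 3 samples as black bars. The RBL2 to RBL1 ratio is the one of the 3 in which no Olaparib sample reaches the lowest DMSO sample (3.86).

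Levels between genes were compared per length, as RPKM, the count divided by the length of all merged exons and by the library size. In DMSO the order was MYBL2 at 94.2 ± 0.858 (SD, n = 3), FOXM1 at 19.8 ± 0.356, RBBP4 at 15.7 ± 0.586, RBL2 at 11.4 ± 0.337 and LIN9 at 7.57 ± 0.244. Below these came LIN52 at 3.04 ± 0.0839, LIN54 at 2.60 ± 0.113, MYBL1 at 2.21 ± 0.126 and LIN37 at 0.549 ± 0.128. By mean RPKM, MYBL2 was 4.77 times FOXM1 and 172 times LIN37 (3.58 and 59.2 times with the length of the canonical transcript, on which LIN37 was at 1.66). The level of LIN37 may be too low, since reads in its shared exonic bases may be missing. The ranges of neighbours in this order did not overlap over the 3 DMSO samples, and the order was the same after Olaparib. With canonical transcript length, 5 of the 9 ranks stayed, as RBL2 passed RBBP4 and MYBL1 passed LIN54.

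**Figure D4:**
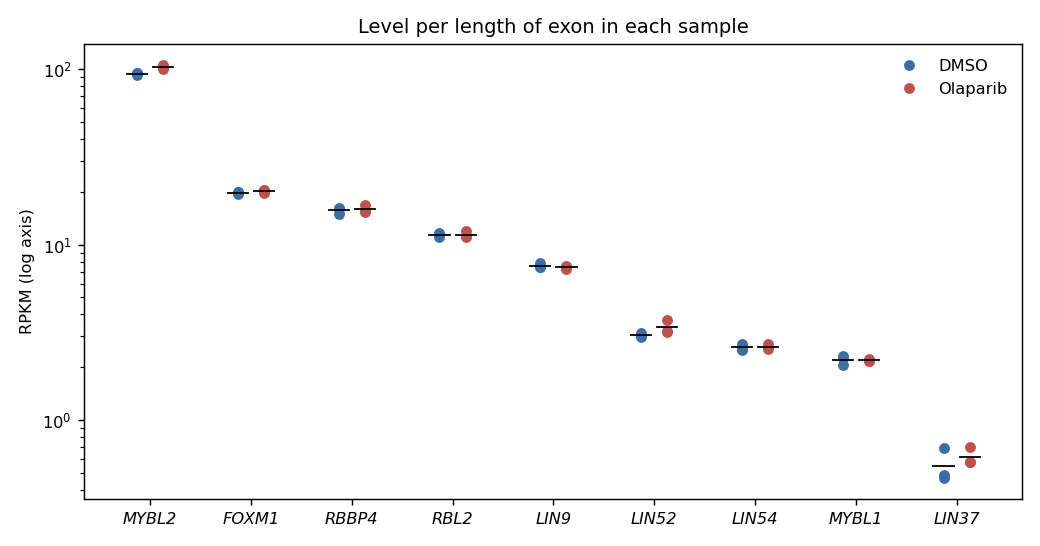
Level of each gene in RPKM on a log axis (vertical), in the 3 DMSO (blue) and 3 Olaparib (red) samples, with black lines at the group means, ordered by the DMSO mean. MYBL2 stands apart at 94.2 RPKM after DMSO, and LIN37 is lowest at 0.549.

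The proteins that act with or on these complexes were described with a list of 20 DREAM partners and regulators. Of these, 3 were called higher and 1 lower, 20% of the list against 3.36% of all genes, with a median log2 fold change of 0.05. The 3.36% is over genes of every level of expression. The called ones were cyclins and mitotic kinases, and no DNA-binding partner of DREAM was among them. All the called ones, CCNE1, CCNE2, CDK1 and PLK1, also belong to the target lists below and are counted again there. E2F4, the usual E2F of DREAM, had 2172, 2379.9 and 2254 normalised counts after Olaparib and 2098, 2195 and 2232 after DMSO (log2 fold change 0.06, adjusted p = 0.555 by edgeR's test). DYRK1A, the kinase of LIN52, changed by -5.03% (95% confidence interval -11.6% to 2.04%, adjusted p = 0.544). CDKN1A, the p21 inhibitor of cyclin-dependent kinases, had 142, 135 and 153 after Olaparib and 123, 105 and 127 after DMSO. Its groups did not overlap, and the fitted difference of 21.1% (95% confidence interval 3.36% to 41.9%) had an adjusted p of 0.208 by edgeR's test.

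The 2 E-type cyclins, which drive entry into S phase with CDK2, changed in opposite directions. CCNE1 had 3589, 3606 and 3545 normalised counts after Olaparib and 3138, 3235 and 3217 after DMSO. CCNE2 had 1010.2, 832 and 919 after Olaparib and 1269, 1117 and 1196 after DMSO. The groups were apart in both genes. On the log2 scale CCNE1 rose by 0.16 (adjusted p = 0.0058 by edgeR's quasi-likelihood test) and CCNE2 fell by 0.38 (adjusted p = 3.65e-05).

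CDK1, the mitotic kinase that phosphorylates FOXM1, had 12728, 11882 and 12113 normalised counts after Olaparib and 11097, 10428 and 10829 after DMSO. PLK1, a mitotic kinase that is both an activator of FOXM1 and a product of its target gene, had 11969, 12447 and 12243 after Olaparib and 10448, 11106 and 11108 after DMSO. Every Olaparib sample was above every DMSO sample in both. CDK1 rose by 0.18 (adjusted p = 0.000195 by edgeR's quasi-likelihood test) and PLK1 by 0.17 (adjusted p = 0.000471) on the log2 scale.

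Genes known as targets of B-MYB, MuvB and FOXM1 in G2 and mitosis were often higher after Olaparib. Of 45 such genes, 42 had a fold change above 0 and 17 were called, all higher, which is 37.8% of the list against 2.15% of all genes called higher. Their median log2 fold change was 0.1. This list, like the others here, was drawn up with earlier results of these data known. All 3 Olaparib samples were above all 3 DMSO samples in 31 of the 45, as in 2173 of all genes (10%), and the reverse held in 1, ESPL1. Most of these genes are strongly expressed. Among genes with an average log2 CPM (count scaled to library size) above 7, 14 of 25 of the list were called higher, against 101 of 1661 genes (6.08%). The changes were small: 1 of the 17, TOP2A, exceeded a fold of 1.2. In bulk RNA a larger share of cells in G2 or mitosis and more transcript per cell cannot be told apart.

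TOP2A, the topoisomerase that untangles chromosomes, had 15412, 14385 and 14515 normalised counts after Olaparib and 12699, 11773 and 11734 after DMSO. UBE2C, a ubiquitin-conjugating enzyme of the anaphase-promoting complex, had 8661, 8561 and 8607 after Olaparib and 7196, 7143 and 7442 after DMSO. HMMR, a protein of the spindle, had 11879.6, 11356 and 11690.3 after Olaparib and 9883, 9655 and 10125 after DMSO. In all 3 genes the lowest Olaparib sample was well above the highest DMSO sample. TOP2A rose by 0.29 (adjusted p = 1.48e-07 by edgeR's quasi-likelihood test), UBE2C by 0.25 (adjusted p = 1.18e-06) and HMMR by 0.24 (adjusted p = 1.76e-06) on the log2 scale. BIRC5, the survivin subunit of the chromosomal passenger complex, had 5737, 6042 and 5903 after Olaparib and 5276, 5062 and 5298 after DMSO. BUB1, a kinase of the spindle checkpoint, had 9555, 9233 and 9406 after Olaparib and 8242, 8362 and 8367 after DMSO. Their groups were also apart, with rises of 0.18 for both BIRC5 (adjusted p = 0.000725 by edgeR's test) and BUB1 (adjusted p = 0.00017).

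Of the 45 late genes, 39 had a promoter entry and 31 of these (79.5%) held TTTGAA or TTCGAA. The list was compiled from known targets, so this share follows in part from how it was chosen. It was 9 of 13 among the called genes and 22 of 26 among those not called. The windows of 5 called genes are shown beside those of LIN9, LIN37, LIN54 and RBL2 above. One match from each is in capitals, and positions are counted in the same way.
TOP2A, position -194 (chr17:40418073-40418102, minus strand): cgagtggtgcctTTTGAAgcctctctagtc
HMMR, position -28 (chr5:163460592-163460621, plus strand): aatgtggggagaTTTGAAtttgaaaccggt
CDK1, position -69 (chr10:60778397-60778426, plus strand): ctgattggctgcTTTGAAagtctacgggct
BUB1, position 2 (chr2:110678045-110678074, minus strand): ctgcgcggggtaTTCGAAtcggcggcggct
PLK1, position -29 (chr16:23678848-23678877, plus strand): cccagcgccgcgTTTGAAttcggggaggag
In HMMR the window holds the same 6 letters again directly after the capitals. CDK1 and TOP2A held further matches not shown, among them TTTGAA at position -13 in the same CDK1 entry. In TOP2A another match lay at position -151 on the opposite strand.

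The targets of E2F and DREAM in G1 and S phase went in both directions. Of 27 such genes, 11 had a fold change above 0 and 16 below, with a median of -0.03 on the log2 scale. Of these, 4 were called, CCNE1 higher and CCNE2, MCM6 and RRM2 lower, 14.8% of the list against 3.36% of all genes. All 3 Olaparib samples were below all 3 DMSO samples in 13 of the 27 and above them in 3. Over all genes these numbers were 2018 (9.29%) and 2173 (10%). The shares over all genes are not matched for level of expression, and 11 of the 27 had an average log2 CPM above 7. MCM6, a subunit of the replicative helicase, had 3326, 3279.5 and 3261 normalised counts after Olaparib and 3781, 3887 and 3850.2 after DMSO. RRM2, a subunit of ribonucleotide reductase, had 7262, 7006 and 7104 after Olaparib and 7596, 7814 and 7725 after DMSO. Both were lower in all 3 Olaparib samples. On the log2 scale MCM6 fell by 0.22 (adjusted p = 9.91e-05 by edgeR's quasi-likelihood test) and RRM2 by 0.11 (adjusted p = 0.0246). The RRM2 call was lost in 4 of the 6 fits that left out 1 sample, with an adjusted p of up to 0.154 by the same edgeR test. An E2F-type motif lay in the promoters of 19 of 22 of these genes with an entry (86.4%), and TTTGAA or TTCGAA in 2 (9.09%). Over all genes with an entry these shares were 23.3% and 19.5%. This list too was compiled from known targets, so its E2F share follows in part from how it was chosen.

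**Figure D5:**
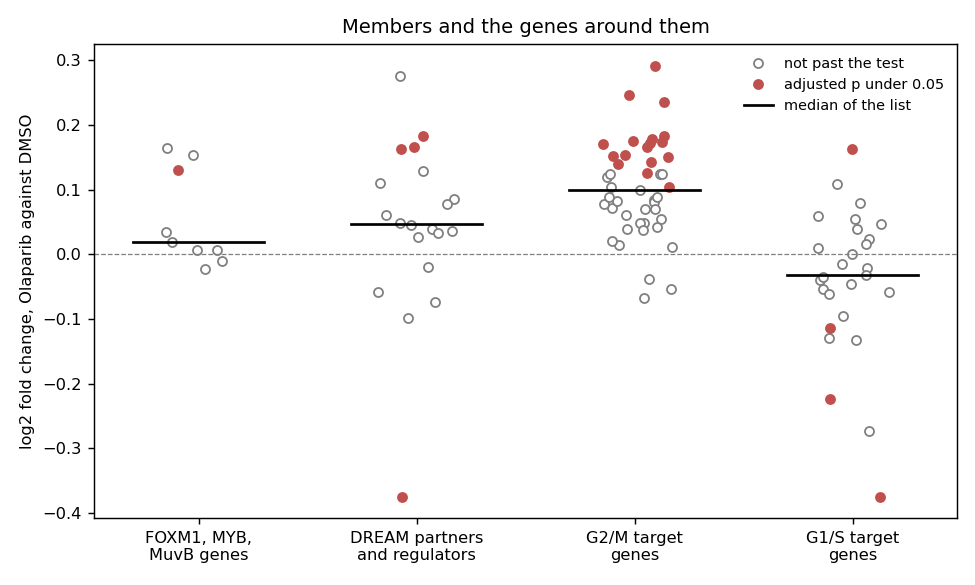
Log2 fold change of Olaparib against DMSO (vertical axis) for each gene of 4 lists, with filled red points for an adjusted p under 0.05 and a black line at the median of each list. Medians are 0.02 for the 9 FOXM1, MYB and MuvB genes, 0.05 for the DREAM partners and regulators, 0.1 for the G2/M targets and -0.03 for the G1/S targets. The partners and regulators share CCNE1 and CCNE2 with the G1/S targets, and CCNA2, CDK1 and PLK1 with the G2/M targets.

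The genes whose log2 CPM followed FOXM1 most closely over the 6 samples included GPR176 (Pearson r = 0.983) and DIP2C (0.98), out of 11997 genes with a mean of at least 100 counts. For MYBL2 they were ARHGEF37 (r = 0.998), HELZ2 (0.993) and INTS11 (0.992). With 6 points from 2 groups and so many genes, high values arise readily, and the libraries share their scaling, so these are descriptions only. None of these named genes belongs to the lists above, and ARHGEF37 and HELZ2 were themselves called higher (log2 fold changes 0.24 and 0.37, adjusted p = 0.00814 and 6.01e-06 by edgeR's quasi-likelihood test).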

How the data were processed

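The authors deposited whole-number read counts per gene for 6 samples, made with Trimmomatic (adapter trimming), STAR (mapping to GRCh38), Picard (duplicates identified, removal not stated) and featureCounts. Libraries were stranded and poly(A)-enriched, and the strand setting of counting is not given in the sources used here. Genes whose 6 counts summed to more than 10 were kept, normalised by TMM and tested with edgeR 4.0.16 in R 4.3.3 (quasi-likelihood test, Benjamini-Hochberg over 21729 genes). TMM factors lay between 0.995 and 1.01, and the biological coefficient of variation was 0.0353. Replicates of a group differed by more than sampling noise (chi-square per degree of freedom 1.81 to 4.11). All 6 were treated as separate samples because they are described as independent, which this value cannot test. The edgeR p-values set the difference of the groups against the spread between these samples, estimated with information shared over genes. They cover dishes of 1 line only. Ratios of counts were tested by exact permutation over samples.

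The table held no gene lengths, as had been assumed, so RPKM used merged exons of GENCODE release 44, which held 81.9% of the identifiers. Promoters came from RefSeq, GRCh38.p14. The 9 genes and all lists were chosen with earlier results of these data known. Named were the 9 genes, 5 paralogs, genes that overlap or copy them, up to 6 called genes per direction of each list, and 3 genes most correlated with FOXM1 and with MYBL2 (1 of them is not reported here); ESPL1, E2F4, DYRK1A, CDKN1A, AURKA, NEK2, CCNB2, KIF2C, ANLN and the cell type markers were added, all but the markers after their values were seen. Alternatives were DESeq2 1.42.0, limma 3.58.1 (voom), other scalings and filters, a fold threshold, a replicate block, each sample left out, a pseudocount of 0.5 and TPM. Canonical transcript lengths, the paralogs' alternatives and the background of highly expressed genes were added after the data were seen. On counts simulated for this comparison (21243 genes), edgeR recovered 100 of 100 genes changed by 1 on the log2 scale. It recovered 91 of 100 changed by 0.5, with 4 false calls. Changes smaller than 0.5, such as that of MYBL2, were not simulated.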

Additional observations from a re-analysis of the deposited data

How the results depend on the processing

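The 13 other fits of MYBL2 all gave a higher level after Olaparib, and 11 kept the call, the exceptions being those without DMSO replicate 2 (0.12) and without Olaparib replicate 2 (0.11). DESeq2 and limma voom each called 17 of the 45 late genes, as did edgeR. Requiring a fold above 1.2 left 262 of all genes, 0 of the 9 genes, 1 G2/M target, 1 G1/S target and 1 DREAM partner or regulator. With the replicate number as a block, 1322 of all genes, 26 G2/M targets, 8 G1/S targets and 4 DREAM partners or regulators were called, and 1 of the 9 genes. No source used here states whether the numbers pair the samples, and 3 samples per group are too few to settle it. In their deviations from the group means, same-numbered samples correlated at -0.204, 0.263 and -0.319 over 11997 genes. Only the samples numbered 2 correlated best with their own number. The highest value of all, 0.484, was between Olaparib replicate 3 and DMSO replicate 1. The ratios within replicate pairs kept their values, with an exact sign-change p of 0.25, the smallest that 3 pairs can give. Upper quartile scaling turned LIN54 to -0.0020 and RBL2 to -0.0030. With canonical transcript length 5 of 9 ranks stayed.

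When each sample was left out in turn, calls ranged from 398 to 870 over all genes (lowest without DMSO replicate 2; 401 without DMSO replicate 3 and 439 without Olaparib replicate 3), 0 to 1 of the 9 genes, 13 to 17 G2/M targets, 3 to 5 G1/S targets and 4 to 5 DREAM partners and regulators. The log2 fold changes ranged over -0.057 to 0.022 for MYBL1, -0.038 to 0.0050 for LIN9, 0.065 to 0.37 for LIN37, 0.073 to 0.19 for LIN52, -0.019 to 0.044 for LIN54, -0.019 to 0.046 for RBBP4, -0.023 to 0.025 for RBL2, -0.029 to 0.0086 for RBBP7 and 0.11 to 0.16 for MYBL2. The median of the 9 ranged from -0.016 to 0.041. Of the 17 G2/M calls, those of AURKA (lost in 5 of 6 such fits), NEK2, CCNB2, KIF2C and ANLN did not hold throughout. The cause of these shifts, beyond fewer samples, was not tested. Counting depth limits LIN37 most, at 47 to 75 counts per sample, and reads in its shared exonic bases may be missing. Only RNA of 1 line at 1 time was measured, so protein, phosphorylation and assembly of these complexes were not analysed here.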
